A study of Mus musculus with 2 samples.

Results

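Non-coding RefSeq transcripts are the genes that the array design lists under an NR accession: long non-coding RNAs (lncRNAs), transcribed pseudogenes, small structural RNAs and non-coding transcripts of protein-coding loci. The array held 1211 such probes, leaving out H19 and Meg3, among 39429 non-control probes. The members are the 259 of them that the scanner called well above background, with no outlier flag, on both arrays. They represent 217 genes, 21 of them accessions without a name in the gene table, against 10223 measured named genes on the array. The difference between the arrays was not itself a criterion of the choice. Detection on both arrays still leaves out probes seen on a single array, and earlier results of these data were known.

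The cells carried SoNar, a fluorescent protein that reports the balance of NADH and NAD+ in the cytosol. Mouse fetal liver at E13.5 gave the blood cells, which a sorter split by the SoNar signal ratio F405/F488 into SoNar-high and SoNar-low cells, and Cy3-labelled RNA of each was hybridised to an Agilent array. There was 1 array per group, so the differences have no replicate error and no test was made. The labels give the strain as C57BL/6 for SoNar-high and as C57BL for SoNar-low cells, and they do not say how the sensor was brought into the cells or how many embryos were pooled.

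Long non-coding RNAs are often capped, spliced and polyadenylated, but are not known to encode a protein of conventional length. A distinct class, the snoRNA host genes (Snhg genes), carries small nucleolar RNAs in introns. The introns release snoRNAs that guide the chemical modification of ribosomal and spliceosomal RNA, while the spliced exons often end in cytoplasmic nonsense-mediated decay. Many host genes, coding or not, begin with a tract of pyrimidines (a 5′ TOP start) that ties their output to growth and translation. In developing red cells, lncRNAs are best known as lineage-restricted transcripts that come and go as erythroblasts mature.

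A level here is the log2 of the processed spot signal minus the log2 of the array's 75th percentile, which was 186.5 signal units for SoNar-high and 222.2 for SoNar-low cells. A difference is the level on the SoNar-high array minus that on the SoNar-low array within 1 probe, and each gene is given by its brightest member probe. Signals are printed as the scanner gave them, so a ratio of signals differs from the scaled difference by the ratio of the percentiles. Of 43020 non-control spots, 49.4% (SoNar-high) and 42.4% (SoNar-low) were well above background. Among 213 probes printed 10 times per array, the median SD of the log2 difference between spots was 0.15, which is technical spread only. At the threshold of the choice, the dimmest non-coding probe well above background had a signal of 31.6 (SoNar-high) or 39.2 (SoNar-low), and the brightest that was not had 36.6 or 51.7.

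The non-coding genes as a whole lay close to the rest of the array, with 104 above and 113 below 0. Their median difference was -0.05, and that of all measured genes was -0.08. By a size of 2-fold, 10 of the 217 were higher and 9 lower in SoNar-high cells, where 5.28% of all measured genes were higher and 4.44% lower. The other 198 lay within 2-fold, while 9.72% of all measured genes lay past it in either direction. The members ranged from -1.66 to 2.80. The share below 0 was 52.1%, against 55.8% of all measured genes. The sign of these medians is a matter of scaling: with the 75th percentile of detected probes in place of that of all spots, the median of all genes moved to 0.07 and that of the members to 0.10.

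The groups did not lie in the same place. The 9 snoRNA host genes had a median difference of -0.56 with 8 of 9 below 0, while the 113 other lncRNAs had a median of 0.05 (-0.09 with quantile normalization) with 58 above and 55 below 0. The 59 pseudogenes had a median of -0.14, and the 7 small RNA genes one of 0.32. The medians also varied with signal, and dim probes lay higher: the 80 members dimmer than 100 signal units had a median of 0.09 (all genes of that range, 0.12), the 99 between 100 and 1000 one of -0.09 (all genes, -0.10), and the 38 above 1000 one of -0.35 (all genes, -0.18).

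**Figure D1:**
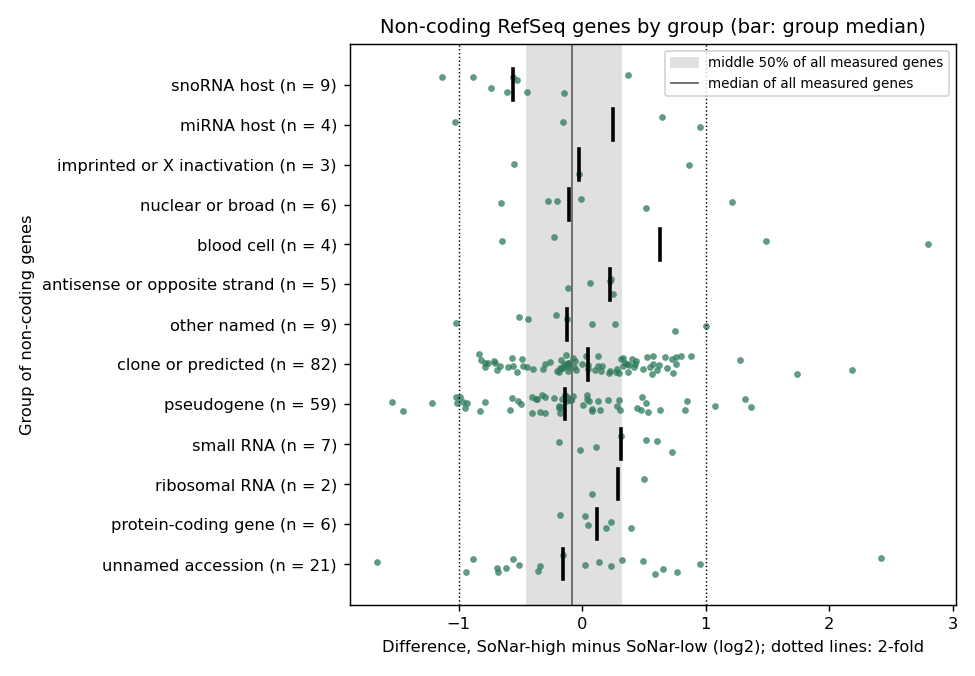
Difference of each of the 217 measured non-coding genes (SoNar-high minus SoNar-low, log2) by group, 1 point per gene; the vertical place of a point within a row has no meaning. Black bars are group medians, and the grey band holds the middle 50% of all measured genes; the snoRNA host median of -0.56 lies left of the band, and the points farthest right are Mirt2 (2.80), the unnamed NR_003278 (2.41) and 9830166K06Rik (2.18).

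**Figure D2:**
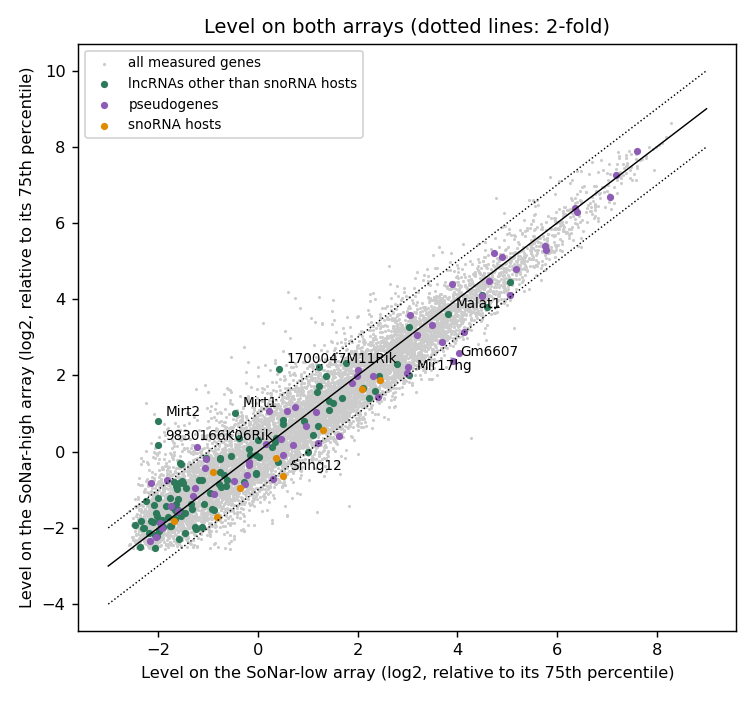
Level of each measured gene on the SoNar-low (x axis) and SoNar-high array (y axis), in log2 units relative to each array's 75th percentile. Grey points are all 10223 measured genes, green, purple and orange points are non-coding genes, the solid line marks equal level and the dotted lines 2-fold; Mirt2 and 9830166K06Rik stand above the upper line and Snhg12, Mir17hg and Gm6607 below the lower.

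The snoRNA host genes were lower in SoNar-high cells in 8 of 9 cases. Snhg12, which holds Snora16a, Snora44, Snora61 and Snord99, had a signal of 121 in SoNar-high and 316 in SoNar-low cells and was 2.20-fold lower after scaling (-1.14). With normexp background correction it was at -0.80, short of 2-fold. Snhg7, host of Snora17 and Snora43, had signals of 57.1 and 125 and a difference of -0.88. Snhg12 and Snhg7 were the lowest of the group, and Snhg12 was past 2-fold, where 4.44% of all measured genes were lower by that size. Snhg7 was past it too with quantile normalization and in the deposited table (-1.05 in both). In bulk RNA, fewer cells of a type and less RNA per cell cannot be told apart.

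A further 5 hosts lay between -0.73 and -0.45. Dancr, host of Snora26 and known for holding progenitor cells undifferentiated, had signals of 277 and 549 and a difference of -0.73. Snhg6, host of Snord87, had signals of 96.1 and 174 (-0.60). Snhg16, host of Snord1a, Snord1b and Snord1c, had signals of 692 and 1214 (-0.56), and its second probe gave -0.93, so both probes point the same way. Snhg1, which holds 8 snoRNA genes including Snord22, had signals of 166 and 285 (-0.53). Snhg3, host of Snora73a and Snora73b, had signals of 581 and 947 (-0.45). In each of these 5 genes the SoNar-low array was the brighter, with no replicate to set the difference against.

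The remaining pair did not share that shift. Snhg10, which holds the guide RNA gene Scarna13, had signals of 52.8 and 69.7 and a difference of -0.15, and reached 0.06 under other settings. Snhg17 was the single host above 0, with signals of 129 and 119 and a difference of 0.37. Of 21 snoRNA host genes listed, 10 had no NR probe named for them here, and Snhg5 (27.6 and 27.1 signal units) and Snhg18 (6.23 and 8.67) were not well above background on either array. The gene table left 21 member accessions unnamed, so a host among these 10 may have been measured without being counted as one. The snoRNAs themselves, cut from the introns, are not what these probes read.

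A pair of members named only as clones also hold snoRNA genes within their annotated span, and both were lower. 1110038B12Rik, whose span includes Snord52, had signals of 564 and 1137 and a difference of -0.76. 2410006H16Rik, with Snord49a, Snord49b and Snord65, had signals of 928 and 1543 and a difference of -0.48. Of all 10 members that hold a snoRNA gene, 9 were below 0, with a median of -0.58 and a range from -1.14 to 0.37. This set was formed after the values were seen.

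**Figure D3:**
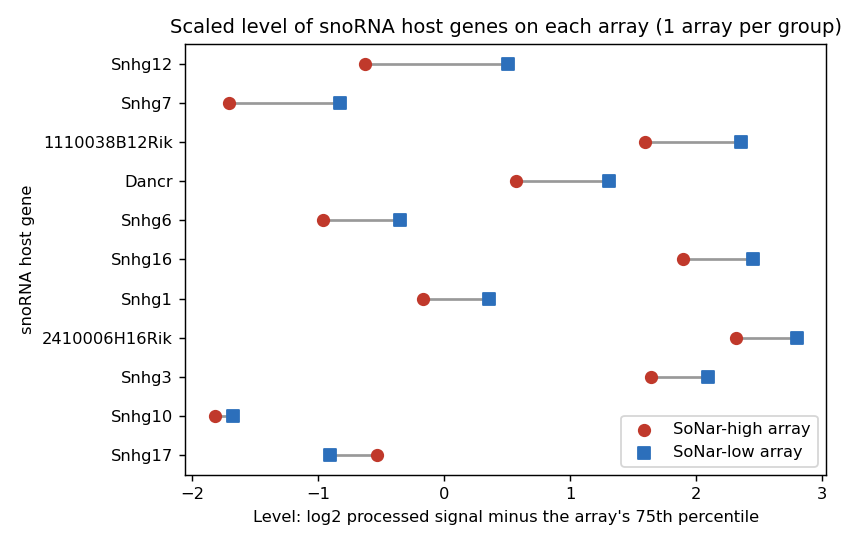
Level of 11 host genes on the SoNar-high array (red circles) and SoNar-low array (blue squares), in log2 units relative to each array's 75th percentile, 1 array per group and no error bars. The square lies right of the circle in every gene except Snhg17, and the gap is widest for Snhg12 (-1.14).

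The starts of these genes are shown because the host genes of the group are known for pyrimidine-rich starts. RefSeq promoters (assembly GRCm38.p6, 250 bases before to 50 after each annotated start) were found for 8 of the 9 hosts and for both clone-named genes. Each was searched for a run of at least 5 bases made only of C and T that begins with C within 10 bases of the annotated start, on the gene's strand. Each sequence below runs 5′ to 3′ on the gene's strand from 40 bases before to 30 bases after the start, and capitals mark the run.
Snhg12, chr4:132308638-132308707, plus strand: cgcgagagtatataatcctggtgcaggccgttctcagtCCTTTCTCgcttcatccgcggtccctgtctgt
Snhg7, chr2:26640215-26640284, minus strand: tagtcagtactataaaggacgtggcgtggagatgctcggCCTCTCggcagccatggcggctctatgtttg
1110038B12Rik, chr17:34952439-34952508, minus strand: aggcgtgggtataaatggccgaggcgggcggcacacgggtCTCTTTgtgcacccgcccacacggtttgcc
Snhg16, chr11:116671620-116671689, plus strand: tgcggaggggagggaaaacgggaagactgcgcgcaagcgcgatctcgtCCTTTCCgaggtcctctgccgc
2410006H16Rik, chr11:62602837-62602906, plus strand: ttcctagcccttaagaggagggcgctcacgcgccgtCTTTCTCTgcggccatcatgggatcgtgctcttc
Snhg3, chr4:132353657-132353726, minus strand: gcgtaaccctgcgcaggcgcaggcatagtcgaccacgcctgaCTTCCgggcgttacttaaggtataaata
Snhg10, chr12:105032250-105032319, minus strand: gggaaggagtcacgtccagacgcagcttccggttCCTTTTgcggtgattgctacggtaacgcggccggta
Snhg1, chr19:8723447-8723516, plus strand, no run: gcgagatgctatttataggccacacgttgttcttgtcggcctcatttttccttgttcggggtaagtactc
Snhg17, chr2:158361480-158361549, minus strand, no run: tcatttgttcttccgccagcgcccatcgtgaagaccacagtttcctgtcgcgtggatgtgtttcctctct

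The run was present in 5 of 9 promoters of listed hosts (55.6%) and in 27 of 92 promoters of other lncRNAs (29.3%), where 30.7% of all 32851 promoters in the table hold one. Snhg12, the lowest host, has a run of 8 bases from 2 bases before its start. Dancr and Snhg1 have no such run and were lower as well, and Snhg10 has a run of 6 bases with a difference of -0.15, so the letters did not sort the hosts by their difference. The coding hosts described next held the run in 7 of 19 promoters (36.8%). CACGTG, searched on both strands over the 300 bases, was in 0 of the 9 host promoters and in 7.15% of all, and AGATAA, on both strands, was in 0 of 9 and in 11.2% of all. A run is a description of these letters and not a mapped start site.

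Genes around the hosts were taken from 3 lists. Coding genes that carry snoRNAs in their introns, mostly ribosomal protein and translation factor genes, were below 0 in 19 of 23 cases, with a median of -0.40, 0 higher and 1 lower by 2-fold. Of all measured genes, 55.8% were below 0, and 5.28% were higher and 4.44% lower by that size. These coding hosts were bright, with median signals of 7167 and 10912. Of all genes above 1000 signal units, 64.9% were below 0, with a median of -0.18. Eif4a2, an mRNA helicase, had signals of 5582 and 10609 and a difference of -0.67, while Eef2, the elongation factor that moves the ribosome, had 8738 and 6792 and was highest at 0.62. Most coding hosts thus lay below 0, with 4 above it, and 8 of the 9 non-coding hosts were below 0 as well.

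The proteins that bind snoRNAs had the widest shift of the 3 lists, with 12 of 15 below 0, a median of -0.50, 0 higher and 5 lower by 2-fold. These 5 are 33.3% of the list, beside 4.44% of all measured genes. Nop58, a core protein of box C/D particles, had signals of 1026 and 3254 and a difference of -1.41. Snu13, which nucleates those particles, had 1700 and 4302 (-1.09), and Nop56, their other core protein, had 896 and 2019 (-0.92). On the side of the box H/ACA particles, Nhp2 had signals of 1172 and 2907 (-1.06) and Dkc1, the pseudouridine synthase, had 74.6 and 181 (-1.02). Znhit6, an assembly factor of box C/D particles, had 247 and 602 (-1.03). Fbl, the methyltransferase of the C/D particle, did not share the direction, with 1766 and 1699 and a difference of 0.31. Nop56 and Dkc1 are on both of these lists because they are also host genes.

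Factors of nonsense-mediated decay, the pathway that degrades many spliced host transcripts, were mixed. Of 12 measured of 14 listed, 8 were below 0, the median was -0.30, and 1 was higher and 1 lower by 2-fold, each 8.33% of the list beside 5.28% and 4.44% of all measured genes. Smg9 had signals of 539 and 251 and a difference of 1.35, and Rbm8a, an exon junction protein, had 334 and 877 and a difference of -1.14. Upf1, the central helicase, had 63.8 and 91.1 and a difference of -0.26.

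**Figure D4:**
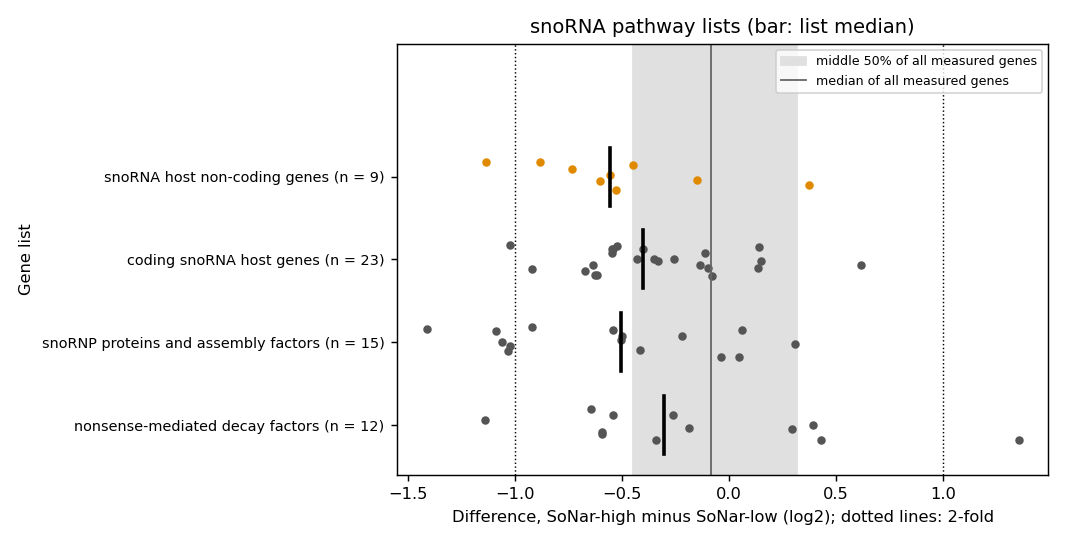
Difference (SoNar-high minus SoNar-low, log2) of the 9 non-coding snoRNA hosts (orange) and of 3 lists of coding genes around them (grey), 1 point per gene, with list medians as bars and the middle 50% of all measured genes as the grey band. The medians are -0.56, -0.40, -0.50 and -0.30 from top to bottom, all left of the median of all genes (-0.08).

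Among hosts of microRNAs, Mir17hg was lower and the others were near or above 0. Mir17hg, the primary transcript of the miR-17-92 cluster that promotes proliferation, had signals of 749 and 1817 and was 2.03-fold lower (-1.03). Over the settings it lay between -1.03 and -0.81. Every setting that changed its value left it short of 2-fold, such as the median of detected probes (-0.96). Mir22hg had signals of 76.7 and 47.2 and a difference of 0.95, which was past 2-fold with the median (1.02) or the 75th percentile of detected probes (1.11) and 0.44 with normexp. Dleu2, which carries Mir15a and Mir16-1, had 95.2 and 72.6 (0.64). F630028O10Rik, a clone-named lncRNA with Mir223 in its span, had 106 and 74.2 (0.76). The last 3 were brighter in SoNar-high cells but dim, below or close to 100 signal units. Ftx, an X-linked lncRNA that holds Mir374b and Mir421, had 32.8 and 43.4 (-0.15) and reached 0.01 under another setting.

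The mature miRNAs of these hosts are shown to identify what each locus encodes, and they were not measured here. Sequences and positions are from RefSeq (GRCm38.p6), 5′ to 3′, with the seed (bases 2 to 8) in capitals. In the Mir17hg cluster on chromosome 14 only Mir92-1 lies inside the annotated gene, and the others lie within 2 kb of it.
mmu-miR-17-5p, chr14:115043684-115043706, plus strand: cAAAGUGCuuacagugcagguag
mmu-miR-20a-5p, chr14:115044183-115044205, plus strand: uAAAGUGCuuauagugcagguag
mmu-miR-18a-5p, chr14:115043867-115043889, plus strand: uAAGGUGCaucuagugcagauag
mmu-miR-19a-3p, chr14:115044048-115044070, plus strand: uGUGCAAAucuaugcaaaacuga
mmu-miR-19b-3p, chr14:115044358-115044380, plus strand: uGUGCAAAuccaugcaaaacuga
mmu-miR-92a-3p, chr14:115044476-115044496, plus strand: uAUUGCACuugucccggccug
mmu-miR-22-3p, chr11:75463772-75463793, plus strand: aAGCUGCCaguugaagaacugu
mmu-miR-15a-5p, chr14:61632075-61632096, minus strand: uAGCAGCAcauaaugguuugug
mmu-miR-16-5p, chr14:61631936-61631957, minus strand: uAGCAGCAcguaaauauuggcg
mmu-miR-223-3p, chrX:96242884-96242905, plus strand: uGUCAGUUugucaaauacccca

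Grouped by seed, miR-17-5p and miR-20a-5p share one (AAAGUGC), miR-19a-3p and miR-19b-3p share another (GUGCAAA), and miR-15a-5p and miR-16-5p, from Dleu2, share the seed AGCAGCA. No seed is shared between the lower host Mir17hg and the hosts that were brighter in SoNar-high cells among these 10 sequences.

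Of 5 measured lncRNAs on the blood cell list, 3 lay above 0, namely Mirt2, Mirt1 and Dleu2 (0.64, described with the miRNA hosts), and 2 below. Mirt2, which is induced by lipopolysaccharide in macrophages, had a signal of 326 in SoNar-high and 55.7 in SoNar-low cells and was 6.97-fold higher (2.80), the largest positive difference of all members. With normexp its difference was 1.71. Mirt1 had 380 and 162 and was 2.80-fold higher (1.49). Lockd, a lncRNA transcribed downstream of Cdkn1b in erythroblasts, had 454 and 633 and a difference of -0.23. AI662270 had 64.5 and 121 (-0.65). Redrum, a lncRNA of erythroblasts outside that list, had 868 and 518 and lay just under 2-fold higher (1.00), and up to 1.20 under other settings.

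Markers of cell types also differed between the arrays, in both directions. For the marker counts below, the share over all measured genes was 5.28% higher and 4.44% lower by 2-fold. Macrophage markers were measured in 8 of 10 cases, 7 of them at least 2-fold higher in SoNar-high cells, with a median of 2.98 and a summed signal of 18698 against 8515; Csf1r stood apart at 0.18. Erythroid markers were at least 2-fold higher in 8 of 9 cases, with a median of 1.55 and a summed signal of 24743 against 22562, and Hemgn differed at -0.43. B lymphoid markers were lower by 2-fold in 6 of 9 cases (median -1.53, summed signal 5053 against 17221), T and NK markers in 4 of 6 (median -2.07, 1989 against 7566) and stem and progenitor markers in 3 of 9 (median -0.84, 10346 against 18240). Hepatic markers were at least 2-fold higher in 5 of 6 cases (median 1.95, 11394 against 4315) and endothelial markers in 4 of 6 (median 2.27, 6351 against 4855). Among defining markers, Timd4, Cd3d, Cd3g and Rag2 were not measured on both arrays. So the labelled blood cells of both arrays also held signal of hepatic and endothelial genes. The part of these cells in the differences of the non-coding genes was not tested.

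Nuclear and broadly expressed lncRNAs lay on both sides of 0, with a median of -0.10 over 6 genes. Pvt1, a neighbour of Myc, had signals of 148 and 76.1 and was 2.32-fold higher (1.21); its second probe gave 0.54, and with normexp its difference was 0.74, short of 2-fold. Neat1, the scaffold of paraspeckles, had 622 and 519 (0.51) and stayed between 0.51 and 0.70 under other settings. Gt(ROSA)26Sor, the transcript of the Rosa26 locus, had 255 and 478 (-0.66). The other members were closer to 0.

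Malat1, a component of nuclear speckles, had signals of 2291 and 3135 and a difference of -0.20, but reached 0.06 under other settings. Norad, which binds Pumilio proteins, had 496 and 716 (-0.28) with probes from -0.31 to 0.27. Tug1 had 237 and 284 and a difference of -0.01. Its brightest probe was printed 10 times, and the difference over its spots had an SD of 0.20 and ran from -0.20 to 0.41, while its 3 probes ran from -0.72 to 0.32. For Malat1, Norad and Tug1 no direction can be read from these arrays.

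The imprinted lncRNAs also pointed in different directions. Airn, the paternal transcript that silences Igf2r, had signals of 107 and 69.7 and a difference of 0.87 (1.02 with the 75th percentile of detected probes), and its overlapping target gene Igf2r had 755 and 575 (0.65). Peg13 had 295 and 514 (-0.55). Kcnq1ot1, which silences genes of the Kcnq1 domain, had 72.0 and 87.4 (-0.03), with a sign that turned under other settings. Xist, the RNA that coats the inactive X chromosome, had probes that were not well above background on either array (11.1 and 18.2 for the brightest).

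Other named lncRNAs had a median of -0.12 over 9 genes. Zfp783 had signals of 184 and 446 and was 2.03-fold lower (-1.02), past 2-fold with this scaling and between -1.05 and -0.86 over the settings. Trmt61b had 127 and 216 (-0.51), and Gdap10 had 736 and 1191 (-0.44). Nron, which restrains the transcription factor NFAT, had 102 and 71.8 (0.75), and its difference was 0.21 with normexp. Antisense or opposite-strand transcripts were within 2-fold in 5 of 5 cases, from -0.11 for Dlx6os2 to 0.25 for Arhgap20os.

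Clone and predicted identifiers made up 82 of the 113 other lncRNAs, with 43 above and 39 below 0, a median of 0.05, and 3 higher and 0 lower by 2-fold. The 3 are 3.66% of the group, below the 5.28% of all measured genes. 9830166K06Rik had signals of 211 and 55.4 and was 4.53-fold higher (2.18). 1700047M11Rik had 843 and 300.3 and was 3.34-fold higher (1.74), and 5830428M24Rik had 153 and 75.2 and was 2.42-fold higher (1.28). With normexp their differences were 1.21, 1.56 and 0.73, so the last was then short of 2-fold. The lowest of the group were D5Ertd605e (47.8 and 101.5, -0.84) and 1700097N02Rik (498 and 1044, -0.82).

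Each lncRNA gene, snoRNA hosts included, was set beside its nearest protein-coding gene in the RefSeq gene table. Of 122 lncRNAs, 81 had a neighbour measured on both arrays, and 42 of these pairs had the same sign. Across the 81 pairs the Pearson correlation was -0.02 and the Spearman correlation -0.01, as a description only, since genes are not independent replicates and both values come from the same arrays. In the 30 pairs where the coding gene overlaps the lncRNA gene, Pearson's r was 0.05 and 17 pairs shared the sign, and in the 51 pairs of adjacent genes r was -0.08 and 25 shared it. Pairs on the same and on opposite sides of 0 were thus about as frequent.

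Single pairs went either way. Snhg12 (-1.14) and Trnau1ap (680 and 1523, -0.91), 0.739 kb apart, were both lower. Mirt1 (1.49) and Smndc1, 50.5 kb away (204 and 504, -1.05), lay on opposite sides, as did Gm10584 (-0.71) and the overlapping Chst15 (379 and 132, 1.77). Pvt1 (1.21) and Myc (419 and 401, 0.32), 47.6 kb apart, were both above 0, and Gt(ROSA)26Sor (-0.66) and the overlapping Thumpd3 (661 and 1051, -0.42) both below.

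**Figure D5:**
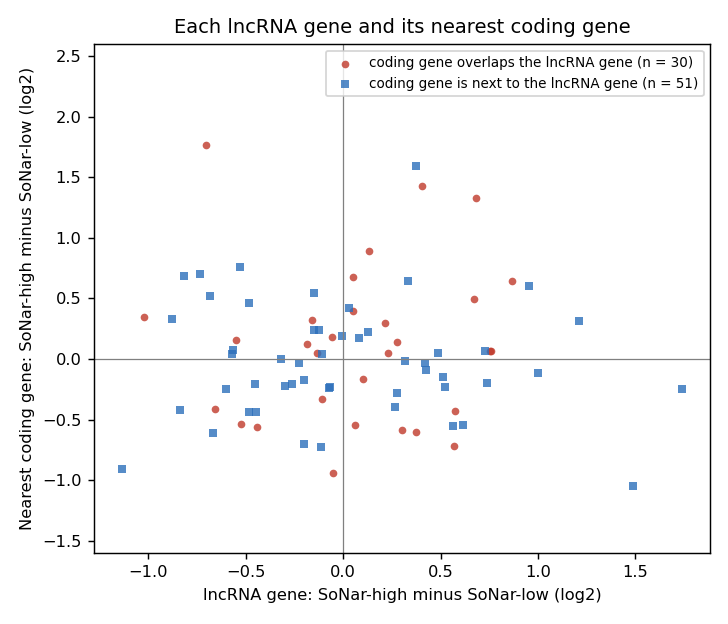
Difference of each lncRNA gene (x axis) against that of its nearest coding gene (y axis), both SoNar-high minus SoNar-low in log2 units. Shown are the 30 overlapping (red circles) and 51 adjacent pairs (blue squares) whose coding gene was measured on both arrays. The points fill all 4 quadrants, and 42 of 81 pairs share a sign.

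Transcribed pseudogenes were 59 of the members, with 23 above and 36 below 0. By 2-fold, 3 were higher (5.08%, beside 5.28% of all measured genes) and 5 lower (8.47%, beside 4.44%). With normexp 0 were higher and 6 lower, beside 251 higher and 257 lower of all 10223 measured genes. Their median of -0.14 turned to 0.02 with the 75th percentile of detected probes. Their probes can also bind the transcript of the near-identical parent gene, so each value is uncertain as a measure of the pseudogene. Gm6607 had signals of 972 and 3363 and was 2.90-fold lower (-1.54), the largest negative difference among named members. Gm15421 had 1115 and 3634 (-1.45), Macroh2a3 had 114 and 274 (-1.02) and Gm5779 had 1634 and 3925 (-1.01, and from -1.12 to -0.79 over the settings). Gm6524 (-0.99), Gm5176 (-0.96) and Rps4l (-0.93) lay just short of 2-fold, and Gm6524 was past it with normexp (-1.07) and before detrending (-1.38). On the other side, Gm8801 had 205 and 94.8 (1.36), Btnl5-ps had 105 and 50.03 (1.32) and Gm5088 had 111 and 62.7 (1.07), each under 100 signal units in SoNar-low cells. With normexp these 3 were at 0.93, 0.61 and 0.67, short of 2-fold, and Macroh2a3 was at -0.54.

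The parent gene could be read from the symbol of 13 pseudogenes, and it was measured for 9, of which 4 had the same sign as the parent gene. Tyms-ps had signals of 248 and 689 and was 2.33-fold lower (-1.22), whereas Tyms, thymidylate synthase, had 228 and 253 (0.10). Hmga2-ps1 lay at 0.44 and Hmga2, a fetal chromatin protein, at -0.96. Gpr137b-ps lay at 0.49 and Gpr137b at -0.71. In these 3 pairs the probes of the pseudogene and the parent differed by more than 1. Hmgb1-rs17 (-0.49) and Hmgb1 (-0.33), and Smarca5-ps (-0.12) and Smarca5 (-0.16), were close together.

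Small structural RNAs tended to lie above 0, in 5 of 7 cases, with none past 2-fold. Rnu1b6, a U1 spliceosomal RNA, had signals of 614 and 442 (0.73). Rnu2-10, a U2 RNA, had 153 and 119 (0.61), and Rmrp, the RNA of RNase MRP, had 156 and 130.04 (0.52). Rnu3b1, a U3 RNA used in cleaving ribosomal RNA precursors, had 81.9 and 78.4 (0.32), and Rnu12, of the minor spliceosome, had 550.3 and 607 (0.11). Terc, the telomerase RNA, had 40.9 and 55.7 (-0.19), and Snora74a had 32.5 and 39.2 (-0.02), the latter at the threshold of detection.

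The 2 members that the gene table types as ribosomal RNA were bright on both arrays. Accessions without a name have no type in that table, so they could not be placed in this group and may include further ribosomal RNAs. Rn28s1 had signals of 34851 and 29407 (0.50), and Rn4.5s had 30411 and 34314 (0.08). Most of these small and ribosomal RNAs carry no poly(A) tail, and the labelling kit named in the labels primes from the tail, so what share of them was copied is not known, and its part in the differences was not tested.

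The 21 accessions that the gene table does not hold, with 28 member probes, had a median of -0.15 with 1 higher and 1 lower by 2-fold. NR_003278 had signals of 4586 and 1025 and was 5.33-fold higher (2.41). Its RNA type is not known here, so the limit given above for RNAs without a poly(A) tail may hold for it too. NR_003546 had signals of 34.9 and 131 and was 3.16-fold lower (-1.66), the lowest of all members but close to background on the SoNar-high array. NR_002840 had 837 and 1916 (-0.94), and its 3 probes ran from -0.94 to -0.58, so they share a direction. The 6 protein-coding genes with a non-coding transcript were within 2-fold, from -0.18 for Alg13 to 0.40 for Bmp1.

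Probes of 1 gene did not always agree. Of 30 member genes with more than 1 member probe, 15 had probes on both sides of 0, and in 5 of these the probes also differed by more than 1. Those 5 were Gm6981 (from -0.42 to 1.34 over 5 probes), 9930014A18Rik (from -0.37 to 0.88), Gm5069 (from -0.58 to 0.51), Tug1 (from -0.72 to 0.32) and the unnamed NR_002860 (from -0.37 to 0.65). Single-probe members have no such check.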

How the data were processed

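Processed, median and background intensities of each spot were deposited by the authors as Agilent Feature Extraction output, with the processed signal already background-subtracted and detrended per the file headers, which name version 11.0.1.1; the submitters' processing notes name 9.1. The authors also deposited a table of log2 values. Its normalization is not given in the labels or headers, and it served as an alternative only. Both columns had a median of 4.80 and followed their own array at r = 0.999, and the direction was taken from the correlation (0.917) of their difference with the scanner's.

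Control and outlier-flagged spots (225 and 135) were left out, and no non-control spot was saturated. Log2 signals were scaled to each array's 75th percentile, spots of a probe averaged, and each gene given by its brightest member probe. Each sample was placed in its group by its source label, there was 1 array per group, and the number of arrays limits precision. Probes were named through RefSeq accessions in a gene table of assembly GRCm38.p6; the array design refers to an older build, so that table's coordinates serve only for its own sequences and for which genes neighbour each other.

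The members, groups and lists were chosen with earlier results of these data known. The genes named are every measured snoRNA host and listed lncRNA, the 8 largest differences in each direction among other named members, the 5 largest in each direction among clone or predicted names, and the 3 brightest members (Gm12070, Rn28s1 and Rn4.5s); unnamed accessions, ribosomal RNA as a group, members that hold a snoRNA gene, and further genes were added after their values were seen. The alternatives were normexp (limma 3.58.1 in R 4.3.3, offset 50, on median spot signals), other scalings, quantile normalization, a loess fit (span 0.3, statsmodels 0.14.6), the deposited table, a minimum signal of 100, no filter, the median over probes and a 3-fold threshold. The scaling and counting were tested on simulated data.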

Additional observations from a re-analysis of the deposited data

How the results depend on the processing

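No paired analysis was possible because there was 1 array per group. Values are counted as moved when they shifted by more than the spot-to-spot spread of 0.15, and counts when they changed by more than 1.5 times. No named gene past 2-fold changed sign under any of the settings tried. With normexp, 5 members were at least 2-fold higher, beside 251 of all 10223 measured genes (540 as reported). The snoRNA host median was then -0.36, and 9 named genes were past 2-fold (17 as reported). Scaling on the median of detected probes left 5 members at least 2-fold lower, as did the loess fit. Over all genes, 353 and 348 were lower by that size in these settings (454 as reported). Taking the 75th percentile of those detected probes as the scale shifted all differences by 0.15. It gave 16 members higher and 4 lower, beside 782 and 247 of all genes. The median was then 0.10 over the members, -0.40 over snoRNA hosts and 0.20 over other lncRNAs. In each of these settings the count over all genes moved the same way as that of the members. With a signal of at least 100, 3 members were higher, the other lncRNAs had a median of -0.11 and 10 named genes were past 2-fold. At 3-fold, 4 members were higher and 1 lower. No count over all genes is given for this or the signal minimum, so these counts do not set the members apart from the array. The cause of these shifts was not tested. The median of the snoRNA hosts stayed between -0.60 and -0.36 over all settings, including the signal before detrending and the addition of the clone-named hosts, both tried after seeing the data. The other lncRNAs had a median below 0 with quantile normalization (-0.09) and the deposited table (-0.08). Background limits the precision of dim probes. Mir22hg, below 100 signal units on both arrays, was at 0.95 as reported and at 0.44 with normexp, a setting that changes the spot signal, the background correction and an offset of 50 together.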

Other observations

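Probes detected on 1 array only are not among the members and lay mostly on the SoNar-high side. Of the 1211 non-coding probes, 107 (8.84%) cleared the background call on the SoNar-high array alone and 5 (0.413%) on the SoNar-low array alone, where 7.97% and 0.781% of all non-control probes were. The remaining 840 were not well above background on either array. For a probe detected on 1 array the difference has only a bound, set by the dimmer probe's own signal or the lowest signal well above background on that array, whichever was higher. This bound is not a strict limit, because non-coding probes of up to 51.7 signal units on the SoNar-low array were not called. Of the non-coding probes, 7 had a bound of at least 2-fold higher and 0 of at least 2-fold lower. Over all probes, 316 and 56 did.

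Those probes whose gene has no other probe among the members are named here, after their values were seen. The unnamed accession NR_003280 had signals of 367.8 and 28.9 and was at least 11.8-fold higher in SoNar-high cells. Its RNA type is not known here either. 2310005E17Rik had signals of 98.8 and 37.0 and was at least 3.17-fold higher, and 1110020A21Rik had 74.3 and 38.4 and was at least 2.31-fold higher. Cyp4b1-ps2 had 70.5 and 36.6 and was at least 2.26-fold higher, and Gm6936 had 69.3 and 26.8 and was at least 2.22-fold higher. Dubr, a lncRNA, had 66.3 and 29.0 and was at least 2.13-fold higher.

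Gm12070, among the brightest members, is a pseudogene with signals of 43984 and 43110 and a difference of 0.28, and its 3 probes ran from -0.43 to 0.45. H2-K2, a class I histocompatibility pseudogene, had 2250 and 1856 (0.53), with probes at 0.42 and 0.53. Zfp133-ps lay at -0.52, Rps15a-ps6 at 0.63 and its parent Rps15a at -0.33.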
